A study of Saccharomyces cerevisiae with 151 samples.

Results

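Yeast cells of the wild type strain BY4741 were profiled 90 min after 3-aminotriazole (3AT) was added, and compared with the same strain just before the addition. These are 6 of the 151 arrays of the series, chosen by their titles alone, with 3 arrays at 0 min and 3 at 90 min. Cultures were kept at 28 °C in SC, a complete synthetic medium, until the OD600 reached 0.5, when 200 ml was taken as the 0 min sample and 3AT was added to 100 mM. Each further time took 200 ml of the same culture, which held 1.6 litre for the 8 times of this strain (0, 10, 20, 30, 45, 60, 90 and 120 min). The study compared the wild type (WT) with strains lacking transcription factor genes. Of these, gcn4, leu3 and gat1 were also sampled at 0 and 90 min with 3 arrays each, under the same protocol. BY4741 is a haploid MATa laboratory strain that carries deletions in HIS3, LEU2, MET17 and URA3, so these are shared by all groups. There was no culture without 3AT at 90 min, and time in culture and 3AT cannot be told apart.

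3AT inhibits the enzyme encoded by HIS3 and is used to starve yeast of histidine. This strain carries a deletion in HIS3 and was kept in a complete medium, and the arrays do not measure whether histidine was short. When amino acids are short, uncharged tRNA activates the kinase Gcn2, translation of the activator Gcn4 increases, and Gcn4 switches on amino acid biosynthesis genes. Sulfate assimilation and methionine synthesis form a separate regulon under the activator Met4 and its partners, and genes for the uptake of poor nitrogen sources are repressed when good sources are at hand.

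The labels were checked against marker genes. GCN4 had signals of 7659, 8326 and 7739 at 0 min and 7375, 5362 and 6518 at 90 min, so the gene was present in the strain labelled WT. MET17 read 3.14 to 25.1, URA3 0.642 to 7.91 and LEU2 1.26 to 50.7 over the 6 arrays, where the 20th percentile of an array's probe sets, used here as its floor, lay at 16.7 to 26.8. HIS3 gave 3097, 3079 and 4011 at 0 min, then 2190, 2348 and 1726, and is no check of the strain where its probes match the part of the gene that remains. The a-factor gene MFA2 read 7585 to 13349, and the alpha-specific receptor gene STE3 read 8.9 to 48.5, near the floor. The actin 3′ to 5′ signal ratio, a sign of RNA quality, was 1.04 to 1.36 at 0 min and 1.32 to 1.72 at 90 min, and its part in the results was not tested. Each array correlated with the other WT arrays at a median of 0.952 to 0.965.

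At 90 min 16 genes had risen and 26 had fallen, of 5611 tested. The genes that rose were led by methionine and sulfur genes, with single genes of biotin, serine and sterol synthesis, and those that fell included amino acid and peptide permeases, respiratory genes and an arginine biosynthesis gene. Changes are differences of log2(signal + 16), with standard errors (SE) from limma, and a gene was called at a Benjamini-Hochberg adjusted p below 0.05 over all genes tested. The calls were 0.749% of genes, 0.285% up and 0.463% down, and 389 genes had an unadjusted p below 0.05. With each array centred on its median in place of the trimmed mean, 20 genes rose and 20 fell. In all 42 called genes the arrays at 0 and 90 min did not overlap, a pattern seen in 21.8% of all genes tested. Same-numbered arrays deviated together, and with the replicate number as a block 99 genes were called (1.76%), 37 up (0.659%) and 62 down (1.1%), among them all 42. Leaving out 1 array lowered the count to 14, 13 or 25 without 0 min replicate 1, 2 or 3, and to 22, 12 or 26 without 90 min replicate 1, 2 or 3. Across these 6 omissions BIO2, ECM13, EEB1, HAP4, MET14, MHT1, MMP1, PDR12, SER33 and YNL134C kept their call each time. Whether a replicate is its own culture is not in the labels, and the spread behind the p-values may thus be technical.

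**Figure D1:**
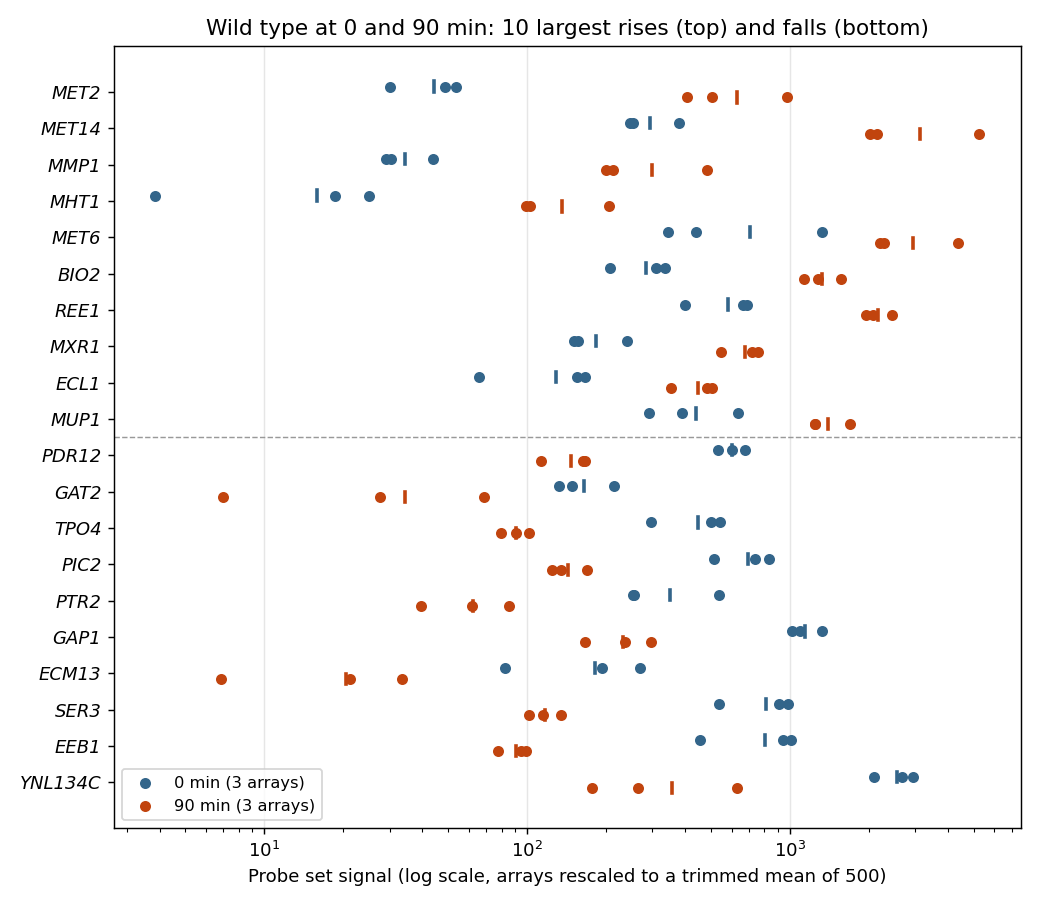
Signals of the 10 genes with the largest rises (above the dashed line) and the 10 with the largest falls (below it) on each of the 3 arrays at 0 min and 3 at 90 min, on a log axis, with a tick at each group's mean. In every gene the 0 min and 90 min arrays are apart, and in MET14 the array at 5260 stands above the other 90 min arrays at 2140 and 2013.

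Sulfur genes made the largest rises. MET14 (YKL001C), the adenylylsulfate kinase of sulfate assimilation, had signals of 379, 246 and 254 at 0 min and 2140, 2013 and 5260 at 90 min. This was a rise of 3.23 ± 0.54 (SE), or 9.38-fold, with a limma adjusted p of 9.7e-05. MET2 (YNL277W), the homoserine O-acetyltransferase that commits homoserine to methionine, went from 53.9, 48.6 and 30.1 to 505, 407 and 976, a rise of 3.35 ± 0.82 (limma adjusted p = 0.022). The groups did not overlap in either gene, and replicate 3 was the highest of the 90 min arrays in both.

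Methionine synthase, which makes methionine from homocysteine, is encoded by MET6 (YER091C). It read 438, 342 and 1329 before 3AT and 2202, 2275 and 4347 after 90 min, a rise of 2.22 ± 0.60 (limma adjusted p = 0.045). Replicate 3 was high at both times, and the groups were still apart. MHT1 (YLL062C), which makes methionine from S-methylmethionine and homocysteine, read 3.85, 25 and 18.6 at 0 min and 98.8, 103 and 204 at 90 min. Only 1 of its 0 min arrays was above the floor, so the rise of 2.25 ± 0.43 (limma adjusted p = 0.00058) is set partly by the pseudocount.

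Of 4 genes for methionine and S-adenosylmethionine uptake MMP1 and MUP1 rose, while MUP3 (0.30 ± 0.35) and SAM3 (0.35 ± 0.33) were not called. MMP1 (YLL061W), the S-methylmethionine permease, had 43.9, 29 and 30.3 at 0 min and 212, 200 and 484 at 90 min, a rise of 2.54 ± 0.50 (limma adjusted p = 0.00074). MUP1 (YGR055W), the high-affinity methionine permease, had 290, 388 and 635 and then 1250, 1247 and 1690, a rise of 1.69 ± 0.44 (limma adjusted p = 0.032). MXR1 (YER042W), which reduces oxidised methionine, went from 151, 156 and 240 to 545, 720 and 755, a rise of 1.81 ± 0.43 (limma adjusted p = 0.018). No 90 min array of these genes fell within the 0 min range. Replicate 3 gave the highest 90 min signal in MET14, MET2, MET6, MHT1, MMP1, MUP1 and MXR1. Without that array MET14, MHT1 and MMP1 were still called, while MET2, MET6, MUP1 and MXR1 were not. Over the 6 omissions of 1 array MET2 lost its call each time. MET6 and MUP1 kept theirs in 1 omission each and MXR1 in 2. MET2 was also not called with a pseudocount of 1.

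As lists, sulfate uptake and assimilation had 1 of 11 members up and none down, with a median change of 1.06 against -0.05 over all genes tested, and 8 of its members were higher on every 90 min array than on any 0 min array, which held for 8.38% of all genes. The 11 include MET17, which is deleted in this strain and read around the floor. Counts of called list members, here and below, stand against 0.285% of all genes called up and 0.463% called down. The list's next largest changes were in MET3, ATP sulfurylase, at 2.03 ± 0.59 (limma adjusted p = 0.085) and in MET5, sulfite reductase, at 1.65 ± 0.65 (limma adjusted p = 0.41). MET3 read 109, 153 and 89.2 at 0 min and 318, 266 and 1564 at 90 min, so replicate 3 was again far above the others. The list of methionine, cysteine and S-adenosylmethionine synthesis had 3 of 14 up and none down (median 0.35), and SAM2, S-adenosylmethionine synthetase, changed by 1.92 ± 0.55 (limma adjusted p = 0.072). The uptake list had a median of 1.02. None of the 6 sulfur regulators was called (median 0.41), with MET32 at 1.17 ± 0.43 and MET28 at 1.03 ± 0.55. With the replicate block 4 members of the sulfate list rose (MET3, MET10, MET14 and SUL2, the latter a sulfate permease), as did MET32 and SAM2, and STR2, a cystathionine synthase, fell.

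The remaining large rises lay outside the sulfur genes. BIO2 (YGR286C), biotin synthase, had 207, 310 and 334 at 0 min and 1283, 1563 and 1131 at 90 min, a rise of 2.18 ± 0.40 (limma adjusted p = 0.00023). It was 1 of 6 biotin genes called (list median 0.02), against 0.285% of all genes called up. The biotin transporter gene VHT1 changed by 0.60 ± 0.48. REE1 (YJL217W) had 662, 687 and 399 and then 1951, 2080 and 2457, a rise of 1.90 ± 0.46 (limma adjusted p = 0.02). ECL1 (YGR146C), named for its effect on lifespan in culture, had 154, 166 and 65.8 and then 354, 504 and 484, a rise of 1.75 ± 0.45 (limma adjusted p = 0.033). All 3 genes had separate groups, with no 90 min array low. BIO2 kept its call in all 6 omissions of 1 array, while REE1 and ECL1 lost theirs each time.

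Both isoenzymes of 3-phosphoglycerate dehydrogenase, which opens serine synthesis, changed, in opposite directions. SER33 (YIL074C) rose from 254, 241 and 158 to 564, 608 and 945, by 1.62 ± 0.30 (limma adjusted p = 0.00023). SER3 (YER081W) fell from 908, 985 and 538 to 115, 102 and 135, with a change of -2.59 ± 0.60 (limma adjusted p = 0.013). In SER33 all 90 min arrays lay above the 0 min arrays, and in SER3 all lay below them. No other of the 10 genes for serine, glycine, homoserine and threonine synthesis was called (list median -0.15).

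Among the smaller rises were ERG3, the sterol C-5 desaturase, and ATF2, an alcohol acetyltransferase that also acetylates sterols. ERG3 had 2936, 2357 and 2500 at 0 min and 6219, 6337 and 6122 at 90 min, a rise of 1.26 ± 0.34 (limma adjusted p = 0.044). ATF2 had 142, 145 and 132 and then 386, 504 and 367, a rise of 1.47 ± 0.32 (limma adjusted p = 0.0047). The 90 min arrays of both genes lay close together, above all 0 min arrays. Over the 6 omissions of 1 array ERG3 lost its call each time and ATF2 kept it in 5. ERG3 was the 1 gene called of 20 for sterol and unsaturated fatty acid synthesis (median 0.35), against 0.285% of all genes called up. In that list ERG4 changed by 0.93 ± 0.36 and HMG2 by -0.77 ± 0.43. TIR1, a cell wall mannoprotein, rose by 1.60 ± 0.43, SRD1, named for its role in ribosomal RNA processing, by 1.26 ± 0.32 and RMD6 by 1.36 ± 0.36.

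YNL134C showed the largest fall. It read 2668, 2936 and 2096 before 3AT and 176, 265 and 629 after 90 min, a change of -2.97 ± 0.52, or 7.83-fold lower (limma adjusted p = 0.00017). EEB1 (YPL095C), which makes ethyl esters of fatty acids, had 943, 1013 and 454 and then 99.5, 94.6 and 77.3, a change of -2.87 ± 0.45 (limma adjusted p = 2.4e-05). ECM13 (YBL043W) had 268, 193 and 82.5 and then 33.4, 21.2 and 6.88, a change of -2.37 ± 0.42 (limma adjusted p = 0.0002). Replicate 3 was the lowest ECM13 array at both times, and 1 of its 90 min arrays was above the floor. EEB1 and ECM13 kept their call under every alternative listed in the closing section.

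Permeases GAP1, PTR2 and AGP1, which bring in nitrogen sources, fell. GAP1 (YKR039W), the general amino acid permease, had 1329, 1095 and 1018 at 0 min and 296, 235 and 167 at 90 min, a change of -2.25 ± 0.61 (limma adjusted p = 0.045). PTR2 (YKR093W), the di- and tripeptide transporter, had 256, 253 and 540 and then 39.6, 85.2 and 61.5, a change of -2.18 ± 0.54 (limma adjusted p = 0.024). AGP1, a broad amino acid permease, had 1672, 1721 and 1780 and then 413, 561 and 470, a change of -1.82 ± 0.40 (limma adjusted p = 0.0064). The groups were apart in all 3 genes. In the 6 omissions of 1 array GAP1 and PTR2 lost their call each time, while AGP1 kept it in 5. GAP1 was also not called with a pseudocount of 1. GAP1, PTR2 and AGP1 were the called members of 12 nitrogen-repressed permeases (median -1.01), against 0.463% of all genes called down. Of the 12, 7 lay lower on every 90 min array, against 13.4% of all genes. DIP5, the dicarboxylic amino acid permease, was the 1 member higher on every 90 min array, with 2883, 2599 and 2103 and then 5617, 5102 and 5638, a change of 1.11 ± 0.50 (limma adjusted p = 0.60). With the replicate block the ammonium permeases MEP2 (-1.44) and MEP3 (-1.22) fell as well. None of 11 genes for allantoin, proline, arginine and GABA breakdown was called (median 0.04), and CAR2, ornithine transaminase, changed by 1.30 ± 0.52 and was called up with the block. GAT1, an activator of nitrogen-repressed genes, had 297, 337 and 311 and then 187, 36.9 and 172, a change of -1.39 ± 0.41 (limma adjusted p = 0.091, and 0.027 with the block). GAT2 (YMR136W), another protein of the GATA family, fell from 133, 148 and 213 to 68.5, 6.96 and 27.6, a change of -2.02 ± 0.36 (limma adjusted p = 0.00022). Replicate 2 was the lowest 90 min array of both GATA genes, and without it GAT2 was not called. Of 11 other amino acid permeases none was called (median -0.38).

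Several other transporters fell too. PIC2 (YER053C), a mitochondrial carrier of phosphate and copper, had 740, 836 and 512 at 0 min and 169, 124 and 134 at 90 min, a change of -2.15 ± 0.48 (limma adjusted p = 0.0073). TPO4 (YOR273C), a polyamine exporter, had 543, 502 and 297 and then 79.4, 91.1 and 102, a change of -2.08 ± 0.47 (limma adjusted p = 0.0073). PDR12 (YPL058C), the exporter of weak organic acids, had 534, 674 and 604 and then 113, 166 and 163, a change of -1.93 ± 0.36 (limma adjusted p = 0.00023). In each the highest 90 min array was below the lowest 0 min array. PDR12 was 1 of 12 genes called in the list of weak acid and drug export (median -0.24), against 0.463% of all genes called down. TPO1, another polyamine exporter, changed by -1.44 ± 0.43 (limma adjusted p = 0.095).

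Respiratory genes included the activator gene HAP4, which had 383, 438 and 255 at 0 min and 46.1, 79.1 and 135 at 90 min, a change of -1.93 ± 0.34 (limma adjusted p = 0.00019). ATP1, the alpha subunit of the ATP synthase, fell from 1566, 1630 and 1842 to 827, 654 and 931, a change of -1.06 ± 0.27 (limma adjusted p = 0.028). Neither gene's groups overlapped. HAP4 is a regulator rather than a subunit, and it and ATP1 were the 2 called of 33 genes in the respiratory list (median -0.19), where 0.463% of all genes fell. In that list 9 genes were lower on every 90 min array, against 13.4% of all genes. NDE1, the external NADH dehydrogenase of mitochondria, was outside that list and fell by 1.16 ± 0.28. 

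**Figure D2:**
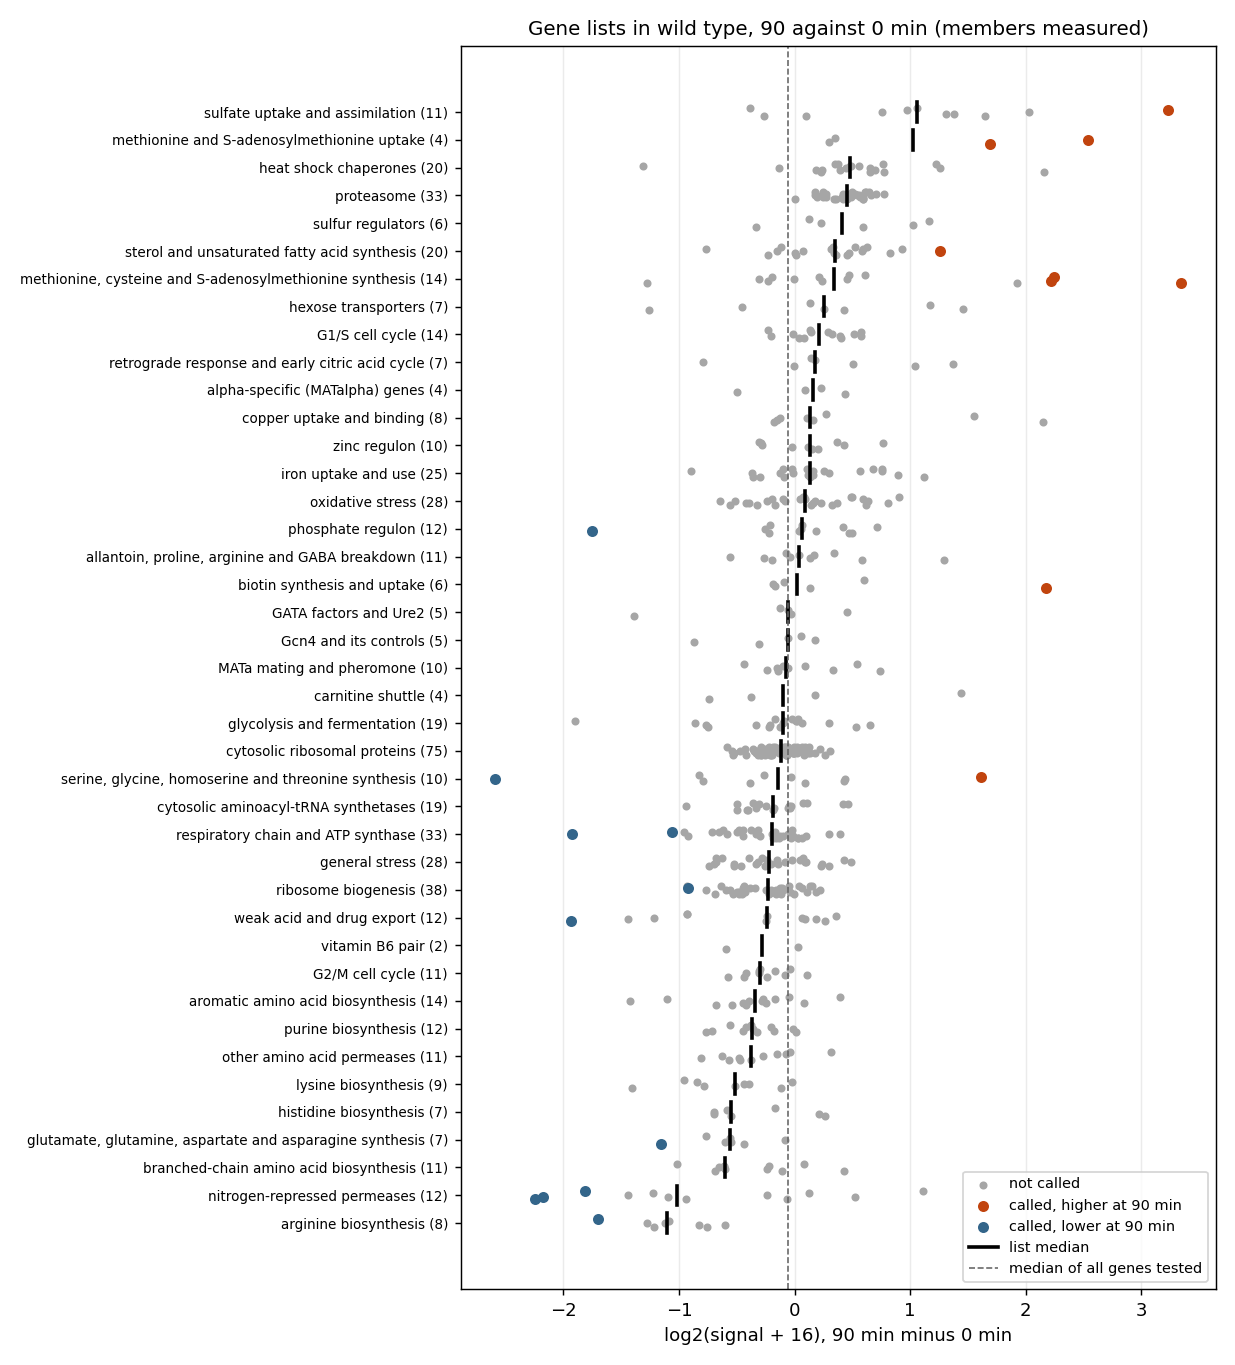
Change from 0 to 90 min, on the log2(signal + 16) scale, of every measured member (points) of 41 gene lists, with list medians (black) and the median of all genes tested (dashed). Called genes are few and lie at the ends, with sulfur lists at the top (medians 1.06 and 1.02) and arginine biosynthesis (-1.10) and nitrogen-repressed permeases (-1.01) at the bottom.

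Genes of amino acid biosynthesis, many of them Gcn4 targets, mostly had lower signals at 90 than at 0 min, with few calls. ARG7, the mitochondrial ornithine acetyltransferase, fell from 1175, 1321 and 2358 to 551, 379 and 479, a change of -1.70 ± 0.41 (limma adjusted p = 0.019). Argininosuccinate synthetase, encoded by ARG1, had 9398, 9889 and 12210 and then 4860, 5114 and 3634, a change of -1.21 ± 0.36 (limma adjusted p = 0.088, and 0.019 with the block). All 8 measured arginine genes were lower on every 90 min array than on any 0 min array, against 13.4% of all genes, although ARG7 alone was called. The list had the lowest median of all lists (-1.10, range -1.70 to -0.60). Elsewhere GLT1, glutamate synthase, fell by 1.16 ± 0.29 (1 of 7 in its list, median -0.56). No gene was called in the histidine list (7 genes with HIS3 among them, median -0.55), the lysine list (9, -0.52), the branched-chain list (11, -0.60) or the aromatic list (14, -0.34). The largest changes there were LYS1, saccharopine dehydrogenase, at -1.40 ± 0.48, ARO3, which starts aromatic amino acid synthesis, at -1.42 ± 0.39 (limma adjusted p = 0.051), and ILV6, a regulatory subunit of branched-chain synthesis, at -1.02 ± 0.31. With the block ARG1, ARO3 and ILV6 fell. GCN4 itself changed by -0.31 ± 0.49 (limma adjusted p = 0.97), and PCL5, the cyclin that marks Gcn4 for degradation, by -0.87 ± 0.48.

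The other genes that fell were single members of their lists or outside any. PHM8, a phosphatase of the phosphate regulon, fell by 1.75 ± 0.45 (1 of 12, median 0.06), and CBF5, the pseudouridine synthase of small nucleolar ribonucleoproteins, by 0.92 ± 0.23 (1 of 38 ribosome biogenesis genes, median -0.23). SRY1, which breaks down 3-hydroxyaspartate, fell by 1.64 ± 0.36, SFK1 by 1.62 ± 0.41 and BUB2, an inhibitor of mitotic exit, by 1.13 ± 0.30. The changes of the remaining genes were -1.82 ± 0.46 for FMP23, -1.79 ± 0.45 for YLR152C, -1.60 ± 0.41 for ARO5, -1.42 ± 0.37 for YER079W and -1.39 ± 0.37 for IAT4. Of 75 cytosolic ribosomal protein genes none was called (median -0.12).

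Stress lists had no called gene at 90 min without the replicate block. All 33 proteasome genes had changes above 0 (0.01 to 0.77, median 0.45), and 18 of them were higher on every 90 min array, against 8.38% of all genes. Heat shock chaperones had a median of 0.48 over 20 genes, 18 of them above 0, and 12 were higher on every 90 min array. With the block 2 were called up, HSP82 and AHA1, a partner of Hsp90. AHA1 changed by 1.22 (limma adjusted p = 0.096, and 0.016 with the block). HSP82, the inducible Hsp90, had 913, 814 and 732 at 0 min and 4040, 3696 and 3388 at 90 min, a change of 2.16 ± 0.67 (limma adjusted p = 0.12, and 0.014 with the block). The groups lay far apart although the gene missed the threshold, with an SE that rests on the spread in all 145 arrays of the fit. CTR1, the copper transporter, was similar, with 143, 117 and 108 and then 582, 541 and 680, a change of 2.15 ± 0.65 (limma adjusted p = 0.11, and 7.6e-06 with the block). Its partner in copper uptake, the reductase gene FRE1, changed by 1.55 ± 0.47 and was also called with the block. The oxidative stress list (28 genes, median 0.09), the iron list (25, 0.13) and the general stress list (28, -0.22) held no call without the block, with which FRE6 of the iron list fell.

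To place 90 min within the course, it was set against its neighbours in time. No gene was called between 60 and 90 min by limma, where 100 had an unadjusted p below 0.05, and none between 90 and 120 min, where 172 did. Both counts are less than a share of 0.05 of the 5611 genes tested, which the test would give with no change at all. The lack of calls thus does not show that levels stayed the same. Other settings called 0 to 6 genes between 60 and 90 min, among them ZRT1, a zinc transporter. With array quality weights ATF2 was called as well (1.23, limma adjusted p = 0.0058). Between 90 and 120 min 17 genes were called, all lower at 120 min, without 120 min replicate 1, and with the replicate block ATP16, CDC9, SAC6 and SEC31 were lower at 120 min. ATF2 had the largest difference among the called genes from 60 min, with 147, 172 and 220 at 60 min and 386, 504 and 367 at 90 min, a difference of 1.16 ± 0.32. AGP1 was 1.05 ± 0.40 higher at 90 than at 60 min. From 90 to 120 min the largest were MET14 at -1.46 ± 0.54, MET6 at -1.37 ± 0.60 and MET2 at -1.22 ± 0.82. MET14 read 4081, 3603 and 2288 at 60 min and 927, 899 and 1276 at 120 min. None of these differences passed the threshold in the fit without weights, although the MET14 arrays at 120 min lay below all those at 60 and 90 min.

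**Figure D3:**
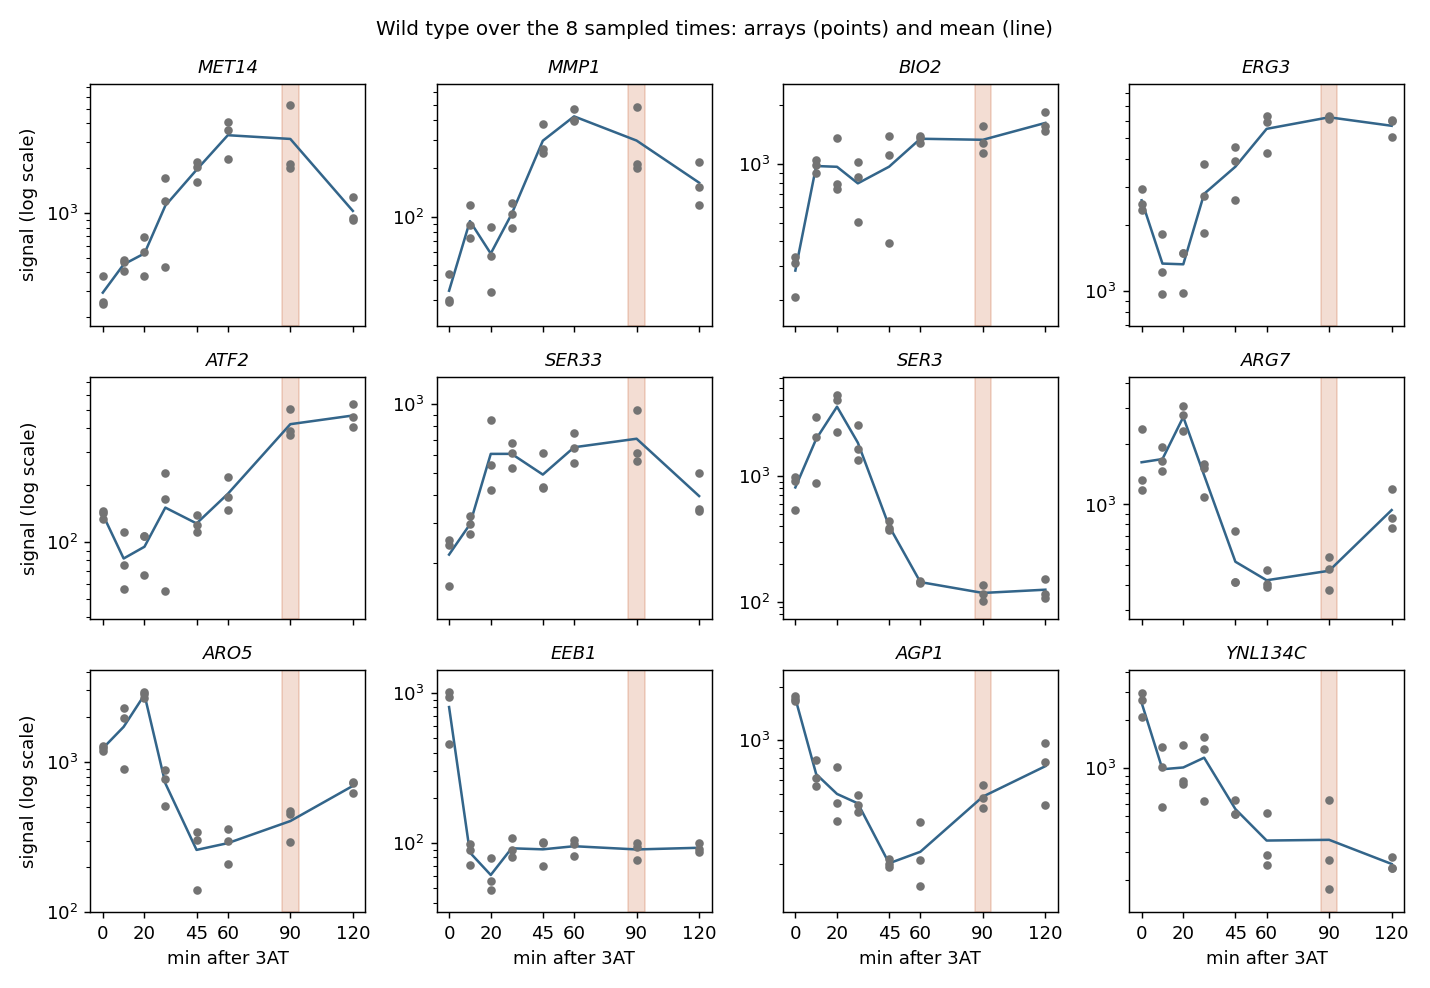
Signals of 12 genes called at 90 min over the 8 WT times, on log axes, with points for the 3 arrays, a line through the means and 90 min shaded. MET14 and MMP1 have their highest means at 60 min, SER3, ARG7 and ARO5 theirs at 20 min, and EEB1 stays low from 10 min on.

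The called genes reached their 90 min level along different courses. EEB1 had a mean of 803 at 0 min and 86.3 at 10 min, and lay between 61.2 and 95.1 at all later times. BIO2 was at 973 by 10 min and at 1326 at 90 min. SER3 had means of 811 at 0 min, 3554 at 20 min, 143 at 60 min and 117 at 90 min, so its highest level came first. ERG3 ran the other way, with 2598 at 0 min, 1325 at 20 min and 6226 at 90 min. ATF2 and TIR1 were highest late, ATF2 with means of 179, 419 and 466 and TIR1 with means of 602, 1135 and 1234 at 60, 90 and 120 min.

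Because of these courses, 90 min was also tested against 20 min, a comparison chosen after the values were seen. It shares the 90 min arrays with the comparison above. Limma called 150 genes (2.67% of those tested), 48 higher and 102 lower at 90 min, and 99 without 20 min replicate 2 and 97 without 90 min replicate 2. Genes of the early response were among the lower. SRX1, sulfiredoxin, had 4517, 7210 and 4716 at 20 min and 150, 228 and 182 at 90 min, a difference of -4.75 ± 0.48 (limma adjusted p = 6.5e-13), and at 90 min stood 0.62 above its 0 min level, which was not called. SER3 differed by -4.69 ± 0.60, FRM2, a nitroreductase-like gene, by -4.10 ± 0.63, YAT2, a carnitine acetyltransferase, by -3.67 ± 0.44 and FMP23 by -3.49 ± 0.46. On the other side HEM13, which encodes an oxygen-dependent step of heme synthesis, had 63.1, 42.3 and 75.9 at 20 min and 327, 584 and 354 at 90 min, a difference of 2.50 ± 0.40 (limma adjusted p = 4.1e-06). MET14 was higher by 2.40 ± 0.54, MET3 by 2.39 ± 0.59, MHT1 by 2.34 ± 0.43 and CTR1 by 2.29 ± 0.65. In the 5 genes of each side the 20 and 90 min arrays did not overlap.

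By list, 7 of 8 arginine genes, 11 of 25 iron genes, 7 of 28 oxidative stress genes and 4 of 14 aromatic genes were lower at 90 than at 20 min, against 1.82% of all genes. The arginine list had medians of 0.73 at 20 min and -1.10 at 90 min, both against 0 min. ORT1, the mitochondrial ornithine carrier, had 1186, 1142 and 1315 at 20 min and 263, 284 and 270 at 90 min, a difference of -2.09 ± 0.41 (limma adjusted p = 0.00024). The iron list had medians of 1.04 and 0.13, and HMX1, heme oxygenase, was lower by 3.24 ± 0.55 at 90 min. PCL5 was lower by 2.32 ± 0.48. In contrast 4 of 20 sterol genes were higher at 90 min, against 0.855% of all genes, namely ERG3 (2.24 ± 0.34), ERG28 (1.80 ± 0.37), ERG11 (1.11 ± 0.28) and ERG1 (1.08 ± 0.32).

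**Figure D4:**
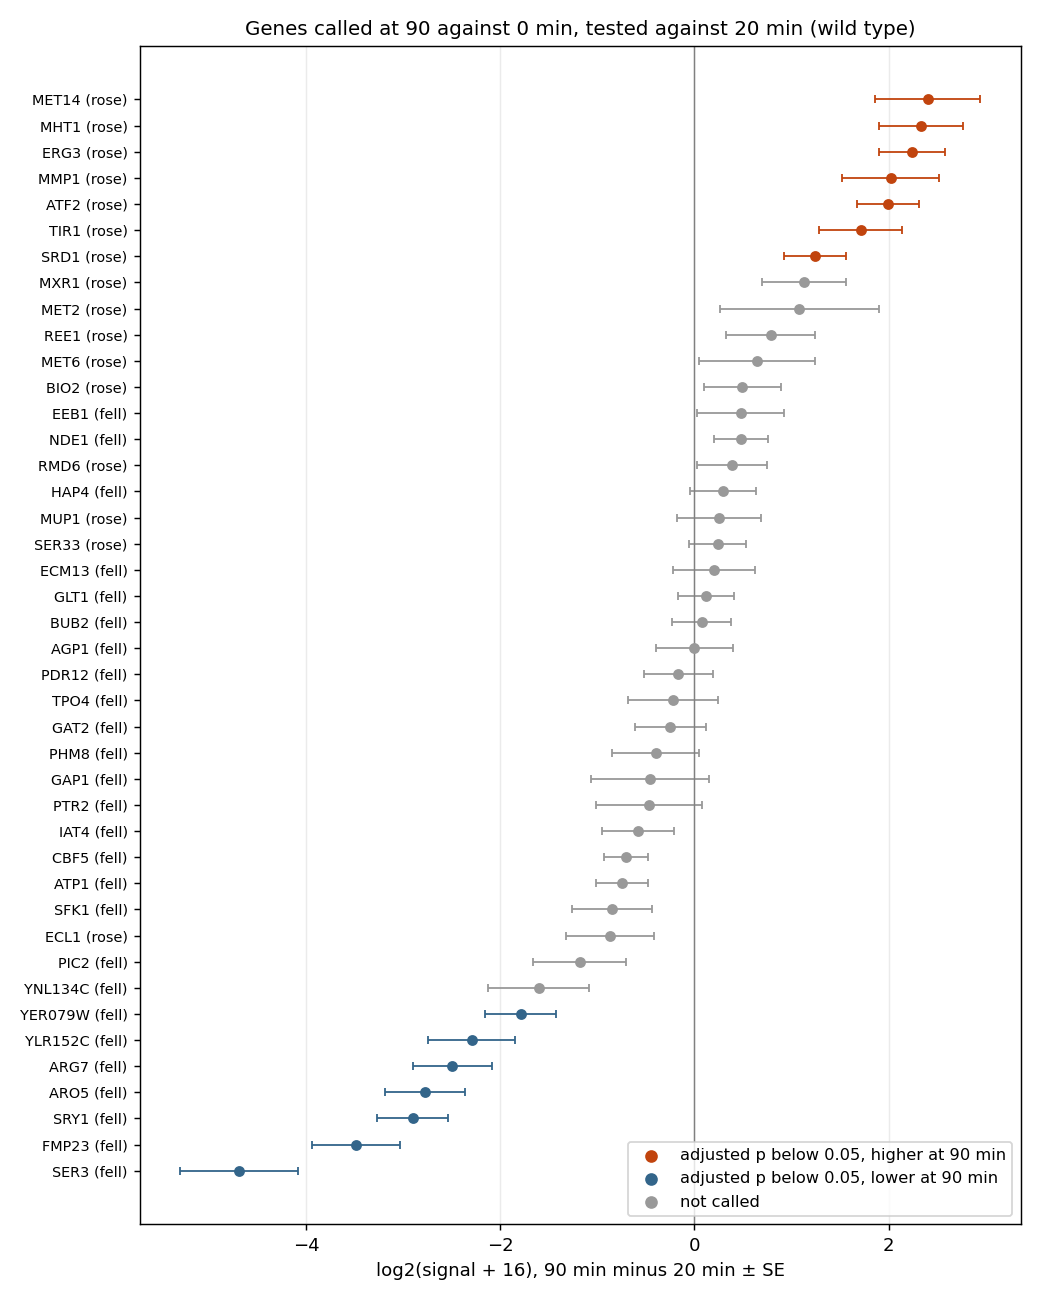
Difference between 90 and 20 min in WT (log2(signal + 16), ± SE) for the 42 genes called at 90 against 0 min, with genes at an adjusted p below 0.05 in colour. SER3 (-4.69) and FMP23 (-3.49) lie lowest and MET14 (2.40) and MHT1 (2.34) highest, while AGP1, PDR12 and ECM13 lie near 0.

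Lastly the change to 90 min was compared with that in strains lacking GCN4, LEU3 or GAT1, by the difference between each strain's own change and the change in WT. The deleted gene was low in its strain, with LEU3 at 1.84 to 22.1 on the leu3 arrays and GAT1 at 3.33 to 21 on the gat1 arrays. On the gcn4 arrays GCN4 read 46.2, 35.2 and 290 at 0 min and 268, 220 and 2285 at 90 min, all below the WT signals. Each gcn4 replicate was higher at 90 than at 0 min. Replicate 3 was the highest at both times, and the library labelled gcn4 90 min replicate 3 stood far above the other 5. All differences share the 6 WT arrays. They also hold the levels at 0 min, where 272 of 5611 genes were called between gcn4 and WT, against 16 at 90 min. For leu3 these counts were 10 and 13, and for gat1 5 and 9. A change that differs from WT can thus go with a different level before 3AT, and the share of each was not tested. No difference was called for any of the 42 genes, and the calls over all genes were 4 for gcn4 (0.0713%), 0 for leu3 (259 at an unadjusted p below 0.05) and 1 for gat1 (0.0178%).

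The genes that rose in WT had changes of the same sign in gcn4 (16 of 16), leu3 (15 of 16) and gat1 (16 of 16), with medians of 1.19, 1.42 and 1.15 against 1.78 in WT. Those that fell had the same sign for 22 of 26, 26 of 26 and 26 of 26, with medians of -1.22, -1.22 and -1.18 against -1.80. These medians carry no test, since the genes were picked on the WT change. Called in the strain itself, in the same direction, were 7 of the 16 and 13 of the 26 in gcn4, against 0.927% and 2.25% of all genes. In leu3 it was 5 and 10 (all genes 0.552% and 0.909%), and in gat1 3 and 7 (0.446% and 0.642%). The 4 genes of the other sign in gcn4 were ARG7 (0.63), ARO5 (0.80), SRY1 (0.03) and CBF5 (0.23). SER3 changed by -0.05 in gcn4, -2.49 in leu3 and -1.57 in gat1. With the replicate block the gcn4 difference was called for 64 genes (1.14%), one of them the deleted gene GCN4 itself (2.75 ± 0.60). Of the 64, ARG7, ARO5, CBF5 and SER3 were among the 42. Without the block their differences were 2.32 ± 0.58, 2.39 ± 0.58, 1.15 ± 0.32 and 2.55 ± 0.85 (limma adjusted p = 0.072, 0.054, 0.12 and 0.29). Of the sulfur genes that rose in WT, MET14, MET2 and MMP1 were called in gcn4, with rises of 2.29, 2.98 and 2.11. MXR1, MET6, MHT1 and MUP1 changed by 1.36, 1.28, 1.07 and 0.46 there and were not called.

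**Figure D5:**
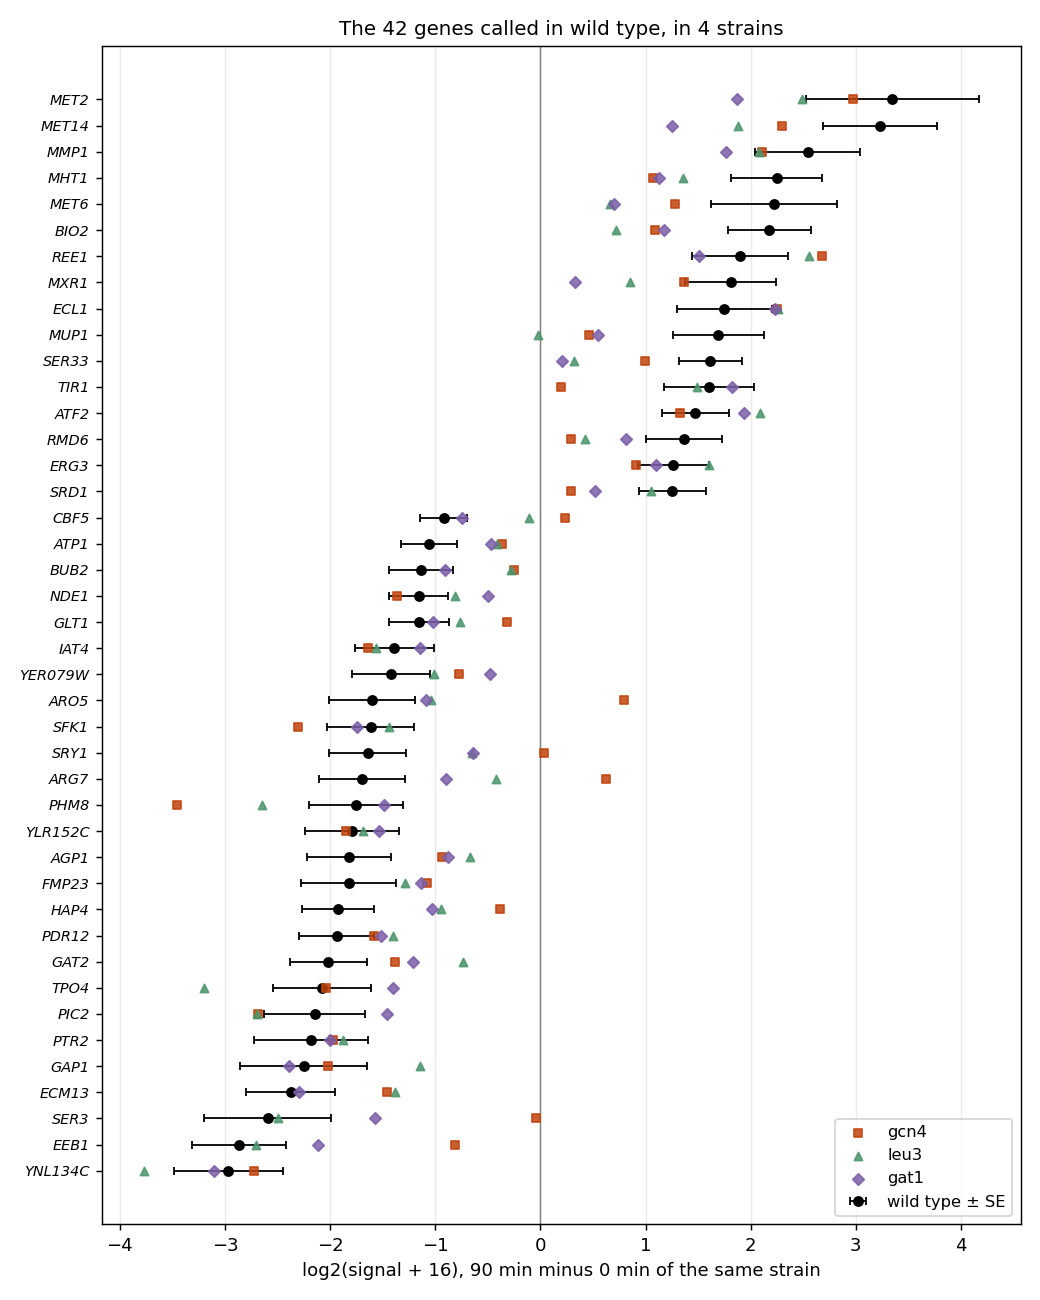
Change from 0 to 90 min (log2(signal + 16)) of the 42 genes called in WT, in WT (black, ± SE) and in gcn4 (squares), leu3 (triangles) and gat1 (diamonds). Most points lie on the same side of 0 as WT, and the gcn4 points of ARO5 (0.80) and ARG7 (0.63) lie across it.

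Without the block, the genes called for a change to 90 min that differed from WT lay outside the 42. ARG4, argininosuccinate lyase, had 931, 1147 and 913 at 0 min and 2455, 2118 and 2773 at 90 min in gcn4, against 8318, 8373 and 8735 and then 4012, 5235 and 3004 in WT. The signal thus was higher at 90 than at 0 min in gcn4 and lower in WT, and the difference was 2.37 ± 0.54 (limma adjusted p = 0.044). AAT2, cytosolic aspartate aminotransferase, had 1987, 2231 and 3001 at 0 min and 4920, 4455 and 6522 at 90 min in gcn4. In WT AAT2 had 6027, 5067 and 6630 and then 3855, 3056 and 4884, and the difference was 1.74 ± 0.39 (limma adjusted p = 0.033). Both ARG4 and AAT2 thus started lower in gcn4 than in WT. PHO84, the high-affinity phosphate transporter, had 40.7, 64.6 and 50.9 and then 1679, 1812 and 1194 in gcn4, and 49.4 to 114 on the 6 WT arrays, a difference of 4.03 ± 0.83 (limma adjusted p = 0.024). BAG7 differed by -3.13 ± 0.70 (limma adjusted p = 0.033), resting on gcn4 0 min arrays at 480, 471 and 1.67, of which replicate 3 is unlike the others. In gat1, SPL2, a regulator of phosphate uptake, had 30, 36.1 and 22.1 and then 252, 212 and 199, against 11.9 to 40.2 in WT, a difference of 2.61 ± 0.53 (limma adjusted p = 0.017). The gcn4 count rested on single arrays. It was 120 without gcn4 0 min replicate 3, 0 without any 1 of the 3 WT 0 min arrays, gcn4 0 min replicate 1, WT 90 min replicate 1 or gcn4 90 min replicate 1, and 1 to 2 without WT 90 min replicate 2 or 3, gcn4 0 min replicate 2 or gcn4 90 min replicate 3. The gat1 count was 0 without WT 0 min replicate 3, WT 90 min replicate 2 or 3, gat1 0 min replicate 1 or 3, or gat1 90 min replicate 1 or 2. With the block leu3 had 1 call, PHO84.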

How the data were processed

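Each array measured biotin-labelled total RNA on an Affymetrix yeast array. The authors deposited 1 intensity per probe set, linear and not logged, and the submitters' processing notes name MAS5; its version and the genome build are not given in the sources used here. Of 9335 probe sets, 6504 name 1 gene in the platform annotation, and all of these were matched by Entrez ID to current symbols, 328 name several genes and 2503 none; genes came from probe sets of 1 gene. For genes with several probe sets, sets not marked as shared came first, and among sets of the same kind the one with the highest mean was used. In all, 211 genes rest on sets marked as shared, where near-identical copies may add signal. Every gene called at 90 min rests on a set of 1 gene.

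Each array was multiplied to a 2% trimmed mean of 500. The WT arrays were already on 1 scale (500.5 to 500.7), as were those of gat1, but replicate 3 of gcn4 (39.3 to 55.8 at 0 and 90 min) and of leu3 (64.8 to 75.7) were not. No pair of arrays held identical values (0 of all pairs). Values were tested as log2(signal + 16), which understates changes of low genes. A gene was kept if above its array's 20th percentile in most arrays of at least 1 group, which left 5611 of 5656 genes. Limma 3.58.1 in R 4.3.3 (lmFit, eBayes with trend) fitted 1 coefficient per group to all 145 arrays of the 7 strains with replicates (95 residual and 9.11 prior degrees of freedom), with two-sided p-values adjusted over all genes and called at 0.05. The median SE was 0.336 for a difference of times and 0.475 for a difference between strains, and precision is limited by the number of arrays. The script was tested on simulated data.

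The replicate number was checked as a block. Deviations from group means of same-numbered WT arrays at 0 and 90 min correlated at 0.148, 0.12 and 0.289, at 90 and 120 min at 0.206, 0.304 and 0.435, in gcn4 at 0.203 to 0.239 and in leu3 at 0.227 to 0.339, so the numbers were taken to pair the samples, from the data and not from the labels. At 60 and 90 min the same-numbered arrays correlated at 0.234, -0.0563 and -0.0112, so pairing was not seen there. In gat1 they correlated at 0.0771 to 0.174, which is weak but above the arrays of different number (-0.164 to 0.0195).

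The genes described are every gene called at 90 against 0 min, with array values for the 10 largest rises and falls, and the strain check genes. To these come, in the lists described, up to 4 of the members that changed most where that exceeds 0.5. In other comparisons they are the 5 largest called genes on each side. Lists not described held no call without the replicate block. With the block the hexose transporter gene HXT2 (1.46) rose there. TDH1 of the glycolysis list (-1.90), DPS1 of the aminoacyl-tRNA synthetases (-0.94) and IMD3 of the purine list (-0.76) fell. The other values given, and the comparison with 20 min, were chosen after seeing the data. The comparison, lists and rules were chosen with earlier results of these data known. Of the list members, 9 had no probe set of their own. Promoter and protein sequences were not analysed here.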

Additional observations from a re-analysis of the deposited data

Results flagged for a closer look

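The change to 90 min differed from that in WT by a tested difference for 5 genes, 4 of them in gcn4 and 1 in gat1. In gcn4 the differences (strain change minus WT change, limma) were 1.74 for AAT2, 2.37 for ARG4, 4.03 for PHO84 and -3.13 for BAG7. In gat1 the difference was 2.61 for SPL2. PHO84 was at 1194 to 1812 on the gcn4 90 min arrays and at 50.9 to 114 on the WT 90 min arrays. It was not particular to gcn4. With the replicate block its difference from WT was also called in leu3 (3.00, limma adjusted p = 0.0076) and gat1 (2.91, limma adjusted p = 0.0047). BAG7 rests on 2 gcn4 0 min arrays at 480 and 471, while the remaining one read 1.67. Groups of 3 arrays were not tested for outlying samples.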

How the results depend on the processing

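For the 42 genes called at 90 against 0 min, 10 kept the call in all 6 omissions of 1 array and 32 in at least 1, with counts of 12 to 26. As deposited, the WT arrays already had trimmed means of 500.5 to 500.7. The median WT change over all genes was -0.0528 on deposited values and -0.0527 after rescaling. The joint fit also held gcn4 arrays deposited at 39.3 to 55.8 and leu3 arrays at 64.8 to 75.7. The count was 2 on the values as deposited. It was 125 with the 24 WT arrays alone, 136 with the 6 arrays alone and 311 with array quality weights. It was 40 with median centring (20 up and 20 down), 46 with quantile normalization, 41 and 48 with pseudocounts of 1 and 64, 43 without the filter on low values, and 44 without WT 30 min replicate 2, which correlated least with other WT arrays. With the replicate block the count was 99. The block gave 1 gene (ANB1) between 60 and 90 min, where pairing was not seen, and 4 between 90 and 120 min. It gave 64 for the gcn4 difference, 1 for leu3 and 4 for gat1 (SPL2, PHO84, HSP12 and YDR222W), where the pairing was weak. Against 20 min it gave 285.

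Between 60 and 90 min weights gave 6 genes, the 24 WT arrays 1 and the 6 arrays 2. Between 90 and 120 min omissions gave 0 to 17. The gcn4 count, 4, was 1 on deposited values, 19 with quantile normalization, 2 and 30 with pseudocounts of 1 and 64, 573 with weights and 285 on scaled arrays alone, and 0 to 120 in omissions. The leu3 count, 0, was 33 with weights, 5 on scaled arrays and 0 in every omission. The gat1 count, 1, was 0 on deposited values and with a pseudocount of 1, 72 with weights, 6 on scaled arrays, and 0 to 1 in omissions. Against 20 min the count, 150, was 10 on deposited values, 392 with weights, 305 with the 24 WT arrays, and 97 to 130 in omissions. The cause of these shifts was not tested. No named gene changed sign under a setting run for it. With 3 arrays a group, signals near an array's floor (MHT1 at 0 min, ECM13, GAT2 and PHM8 at 90 min) give only a rough size of change.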
